A study of Eulimnogammarus verrucosus and Eulimnogammarus cyaneus and Gammarus lacustris with 24 samples.

Results

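Respiratory chain subunits that animals encode in the mitochondrial genome were examined in 3 species of amphipod crustaceans held in the cold or the warm. Members were the entries of the authors' deposited comparison tables whose gene symbol is that of a mitochondrial protein gene, that is COX1 to COX3, the ND series, CYTB, ATP6 or ATP8 in any of their usual spellings. They numbered 26 of 12688 names, with 9 of 3920 in Eulimnogammarus verrucosus, 10 of 3674 in Eulimnogammarus cyaneus and 7 of 5094 in Gammarus lacustris. Entries for ATP8 and ND6 are not analysed here. The first 2 species are endemic to Lake Baikal and G. lacustris is widespread. The groups compared were adult whole bodies kept at 1.5 °C or at 12 °C for 1 month, after 14 days at 6 °C and a change of temperature spread over about 6 days, which both groups of a species share. Each group had 4 libraries. A library came from pooled individuals, which numbered 3 for the large E. verrucosus, 13 or so for E. cyaneus and 11 or so for G. lacustris, so the spread between libraries is that between pools.

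The mitochondrial genome encodes some of the core subunits of the proton-pumping complexes, and all other subunits come from the nucleus. ND subunits form the membrane arm of complex I (NADH dehydrogenase), CYTB is the cytochrome b of complex III, COX1 to COX3 form the catalytic core of complex IV (cytochrome c oxidase), and ATP6 is part of the proton channel of ATP synthase. In animals these genes are transcribed as long precursors from which tRNAs are cut, and the mRNAs are then polyadenylated, so that libraries made from poly(A) RNA hold them, often among the most abundant transcripts of muscle and other tissues with a high oxygen demand.

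Library totals ran from 8501814 to 15417652 estimated counts. The deposited files do not link gene names to assembled transcripts. Transcripts were therefore assigned to 17 of the 26 names by finding the transcript, or the set of 2 or 3, whose counts return the name's mean in the authors' deposited table. This gave 23 transcripts, of which 18 passed the filter on low counts and were tested. The other 9 names are described only from the authors' deposited table. In that table a level is a mean normalised count over all 8 libraries of a species. For the transcripts, counts scaled to the effective library size (CPM) are used to compare libraries, and TPM, which also divides by length, to compare levels between genes. Changes are log2 of 1.5 °C over 12 °C. Whether a transcript lies on the mitochondrial genome of the amphipod itself was not tested, since no sequence was used. In whole bodies, fewer cells of a type and less RNA per cell cannot be told apart.

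In E. verrucosus and E. cyaneus no transcript of a mitochondrial name passed the test between temperatures, and in G. lacustris 2 of 6 did. Those 2, the abundant COX1 transcript and ND5, were 7.15-fold and 11.3-fold lower at 1.5 °C than at 12 °C. Among the assigned transcripts, each species had 1 or 2 very abundant ones beside a set of scarce ones. Names without an assigned transcript could be abundant too. ND2 of E. verrucosus and ND1 of G. lacustris had mean normalised counts of 21445 and 27070 in the authors' deposited table, which called neither. In E. verrucosus the quasi-likelihood test of edgeR, adjusted by Benjamini and Hochberg's method over all transcripts, called 0 of 7 transcripts at an adjusted p under 0.05, and 0 of 7 had an unadjusted p under 0.05 (DESeq2 also called 0), where 3.34% of all 24119 transcripts were called. In E. cyaneus edgeR called 0 of 5 (DESeq2 called 0 of 9), where 0.629% of 20678 were called. The unadjusted edgeR p was under 0.05 for 2 of these 5, and for 2936 of all 20678. In G. lacustris 39.8% of 27194 transcripts were called, made up of 30.1% lower and 9.70% higher in the cold, so that 2 of 6 lower is a share near that of all transcripts. Counting groups of libraries that did not overlap in CPM gave 0 of 7 in E. verrucosus and 0 of 5 in E. cyaneus, where 9.16% and 10.2% of all transcripts did not overlap, and 2 of 6, both lower, in G. lacustris, near the 29.7% of all transcripts that were lower without overlap.

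**Figure D1:**
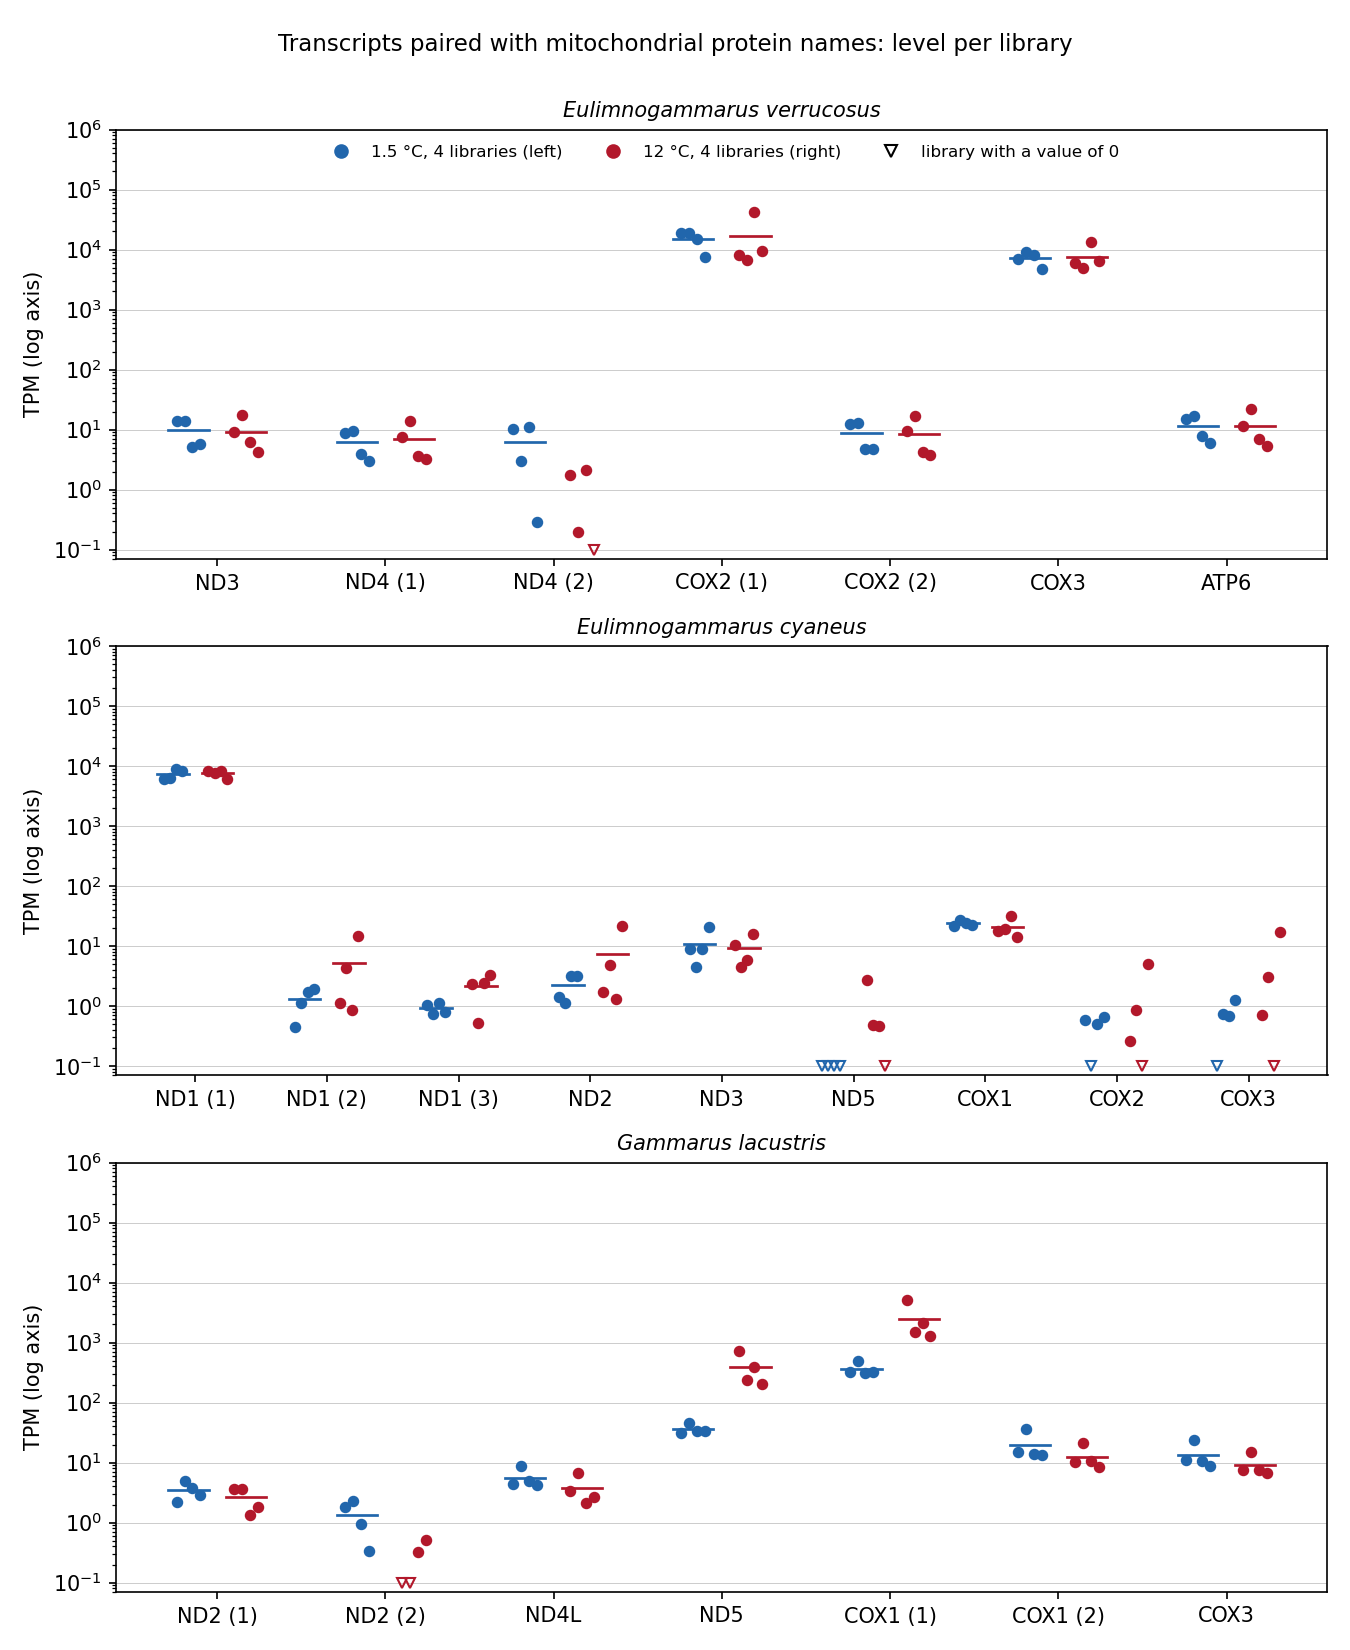
Level in TPM (log axis) of each transcript paired with a mitochondrial name, in every library; blue points on the left are the 4 libraries at 1.5 °C, red points on the right the 4 at 12 °C, bars are means where no library is at 0, and open triangles mark libraries at 0. Numbers in brackets rank the transcripts of 1 name by abundance. Most names sit below 50 TPM, and COX2 (1) and COX3 of E. verrucosus, ND1 (1) of E. cyaneus and COX1 (1) of G. lacustris stand above them at both temperatures, ND5 of G. lacustris only at 12 °C.

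Of the complex I genes, ND1 was the most abundant member in E. cyaneus. It rested on 3 transcripts, of which 1 of 1312 nt held 99.9% of the name's mean. This transcript had 8035, 7463, 9883 and 9794 CPM in the libraries at 1.5 °C and 16080, 10097, 10950 and 7460 CPM in those at 12 °C. The groups overlapped, since replicate 4 at 12 °C was lower than every library at 1.5 °C. Its log2 change came to -0.34 (SE 0.26, adjusted p = 0.581 by edgeR). It took 0.877 to 1.1% of a library's counts at 1.5 °C and 0.817 to 1.07% at 12 °C. A second ND1 transcript of 2131 nt was far scarcer, with 11, 29, 45 and 58 estimated counts at 1.5 °C and 29, 98, 22 and 391 at 12 °C. Its log2 change of -2.15 (SE 0.78, adjusted p = 0.248 by edgeR) leaned on replicate 4 at 12 °C and was -0.97 without it. The third ND1 transcript, of 489 nt, held 52 estimated counts over the 8 libraries and did not pass the filter. For the ND1 entries of the other species the source is the authors' deposited table, computed with DESeq2. In E. verrucosus the authors' deposited table gives a DESeq2 log2 change of 0.62 (SE 0.57, adjusted p = 0.725) at a mean normalised count of 59.2. In G. lacustris the authors' deposited table gives -0.55 (SE 0.33, adjusted p = 0.141) at a mean of 27070.

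The values in the authors' deposited table of G. lacustris are on another scale than those of the transcripts. The size factors behind that table, recovered from its means, shift log2 changes by 0.66 on average relative to TMM scaling, against -0.11 in E. cyaneus and -0.03 in E. verrucosus. Being a mean over libraries, the shift is approximate for a single name. With it taken off, COX1 and ND2 of G. lacustris stand at -2.66 and 0.76. By edgeR on their summed transcripts they stand at -2.79 and 0.59. With 0.66 taken off, ND1 of G. lacustris in the authors' deposited table stands at about -1.21. Of the names of G. lacustris, 58.9% were called in the authors' deposited table, 25.1% higher and 33.8% lower, against 6.27% in E. cyaneus and 4.69% in E. verrucosus. The authors' deposited table calls 5 of the 7 mitochondrial names of G. lacustris, 3 higher and 2 lower, and none of the 9 in E. verrucosus or of the 8 in E. cyaneus with an adjusted p. The log2 changes of the 3 higher calls of the authors' deposited table (ND2, ND4L and COX3) lay between 0.58 and 0.76 once the 0.66 was taken off, and none of their transcripts was called under TMM scaling.

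ND2 was scarce wherever a transcript could be assigned. In E. cyaneus its 517-nt transcript had 6, 5, 15 and 17 estimated counts at 1.5 °C and 8, 20, 6 and 101 at 12 °C. Replicate 4 at 12 °C was the high one, and the other 3 warm libraries lay among the cold ones or just above them. The fitted log2 change was -1.87 (SE 0.78, adjusted p = 0.315 by edgeR) and was -0.56 without that library. In G. lacustris the main ND2 transcript, of 710 nt, had 1.71, 4.05, 2.90 and 2.33 CPM at 1.5 °C and 3.17, 2.77, 1.02 and 1.43 CPM at 12 °C. The groups overlapped, with a log2 change of 0.39 (SE 0.45, adjusted p = 0.531 by edgeR). A second ND2 transcript of 412 nt had 7, 8, 3 and 1 estimated counts at 1.5 °C and 0, 0, 1 and 2 at 12 °C, too few to test. A library at 0 allows up to 3 counts. ND2 of E. verrucosus is abundant in the authors' deposited table, at a mean normalised count of 21445 and a log2 change of -0.23 (SE 0.46, adjusted p = 0.921).

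ND3 could be followed in both Eulimnogammarus species. In E. verrucosus its 1191-nt transcript had 11.2, 14.1, 4.33 and 8.32 CPM at 1.5 °C and 13.6, 20.5, 7.63 and 3.52 CPM at 12 °C. In E. cyaneus a transcript of 1121 nt had 9.78, 4.55, 8.45 and 20.4 CPM at 1.5 °C and 17.1, 4.95, 6.44 and 16.4 CPM at 12 °C. The groups overlapped in both, with differences of 4.49-fold to 5.83-fold between the highest and the lowest library. ND3 changed on the log2 scale by -0.25 (SE 0.56, adjusted p = 0.943 by edgeR) in E. verrucosus. The value was -0.05 (SE 0.52, adjusted p = 0.974 by edgeR) in E. cyaneus.

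ND4 of E. verrucosus rested on 2 transcripts of like level and unlike pattern. The first, of 902 nt and 53.8% of the name's mean, had 5.19, 7.13, 2.44 and 3.23 CPM at 1.5 °C and 8.51, 12.4, 3.27 and 2.06 CPM at 12 °C. The second, of 1638 nt, had 12.2, 4.39, 13.9 and 0.621 CPM at 1.5 °C and 3.80, 0.351, 3.94 and 0 CPM at 12 °C. The first was highest in replicate 2 at 12 °C, where the second was nearly absent. Their log2 changes were -0.54 (SE 0.60, adjusted p = 0.852 by edgeR) for the first and 1.98 (SE 1.28, adjusted p = 0.670 by edgeR) for the second. The sum of both, as a name is counted in the authors' deposited table, changed by 0.52 (SE 0.62, adjusted p = 0.862 by edgeR), so that a name's value mixes 2 opposite signs. The authors' deposited table has 0.11 (SE 0.55, adjusted p = 0.971 by DESeq2) for ND4. For ND4 of E. cyaneus the authors' deposited table has a log2 change of -0.70 (SE 0.48, adjusted p = 0.458).

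ND4L was assigned in G. lacustris. Its 1646-nt transcript had 9.11, 19.2, 10.2 and 9.10 CPM at 1.5 °C and 7.80, 13.5, 4.41 and 5.44 CPM at 12 °C. Replicate 2 was the highest library at either temperature and the groups overlapped. ND4L had a log2 change of 0.61 (SE 0.41, adjusted p = 0.279 by edgeR). Without replicate 2 at 12 °C the adjusted p was 0.0402 by edgeR at a log2 change of 1.2. The authors' deposited table, on its own scale, calls ND4L higher (adjusted p = 0.00387 by DESeq2).

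ND5 of G. lacustris carried the largest change of any tested member. Its 1735-nt transcript had 69.2, 105, 72.0 and 75.4 CPM at 1.5 °C and 1821, 503, 856 and 440 CPM at 12 °C. Every library at 1.5 °C was below every library at 12 °C, which was true of 29.7% of the transcripts tested. The level averaged 80.3 ± 16.4 CPM at 1.5 °C and 905 ± 638 CPM at 12 °C (SD, n = 4 each), a log2 change of -3.49 (SE 0.46, adjusted p = 0.000357 by edgeR). The change lay between -3.64 and -2.88 when libraries were left out in turn, and all 8 of these fits called it. Of the 27194 transcripts tested, 5.05% fell as far or farther. The ND5 transcript of E. cyaneus, of 320 nt, had 0 counts in all 4 libraries at 1.5 °C and 6, 1, 1 and 0 counts at 12 °C, so that no fold is given.

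CYTB, the only mitochondrially encoded protein of complex III, could be assigned to no single set of transcripts, and its values come from the authors' deposited table alone. In E. verrucosus the authors' deposited table has CYTB at a mean normalised count of 469.8 and a log2 change of 0.87 (SE 0.41, unadjusted p = 0.0352, adjusted p = 0.281 by DESeq2). In G. lacustris the authors' deposited table gives a mean of 1146 and -0.28 (SE 0.28, adjusted p = 0.394), or about -0.94 with the shift of scale taken off. In E. cyaneus the mean in the authors' deposited table was 0.655, too low for an adjusted p.

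COX1 holds the heme and copper site at which oxygen is reduced. In G. lacustris 2 transcripts carried the name, and they moved differently. The first, of 3421 nt, held 99% of the name's mean and had 1435, 2288, 1362 and 1508 CPM at 1.5 °C and 25581, 6342, 9477 and 5751 CPM at 12 °C. All 4 libraries at 1.5 °C were below all 4 at 12 °C, and the warm libraries differed among themselves by several fold, with replicate 1 the highest. The level averaged 1648 ± 431 CPM at 1.5 °C and 11788 ± 9340 CPM at 12 °C (SD, n = 4 each). Between the temperatures this is a log2 change of -2.84 (SE 0.48, adjusted p = 9.00e-04 by edgeR), and 16.7% of all transcripts tested fell as far or farther. Leaving out libraries in turn gave -2.98 to -2.11, called in all 8 fits. By count this transcript ranked 32nd to 81st in the libraries at 1.5 °C and 2nd to 13th in those at 12 °C.

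The second COX1 transcript of G. lacustris, of 2278 nt, had 44.6, 115, 39.8 and 39.9 CPM at 1.5 °C and 34.4, 59.4, 31.1 and 24.5 CPM at 12 °C. Replicate 2 was the highest at each temperature and the groups overlapped. This second transcript had a log2 change of 0.68 (SE 0.41, adjusted p = 0.228 by edgeR). The entry for COX1 in the authors' deposited table, -2.0 (SE 0.37, adjusted p = 4.29e-07), sums both and follows the first. On the per-length scale the second transcript stood at 13.2 to 36.7 TPM at 1.5 °C and 8.34 to 20.9 TPM at 12 °C, while the first stood at 309 to 484 TPM and 1294 to 5067 TPM at the same temperatures.

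COX1 of E. cyaneus, a transcript of 2495 nt, was steadier than any other scarce member. It had 58.2, 66.2, 55.0 and 54.0 CPM at 1.5 °C and 70.9, 50.1, 85.4 and 36.0 CPM at 12 °C. The cold libraries lay inside the range of the warm ones. The fitted log2 change was -0.05 (SE 0.27, adjusted p = 0.945 by edgeR). For E. verrucosus the authors' deposited table gives COX1 a mean normalised count of 252 and a log2 change of 2.23 (SE 1.2, adjusted p = 0.394).

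COX2, which takes electrons from cytochrome c, was the most abundant member of all in E. verrucosus. Its main transcript, of 2408 nt, held 99.9% of the name's mean and had 33512, 42614, 28106 and 24573 CPM at 1.5 °C. At 12 °C it had 27464, 17890, 120828 and 18128 CPM. Replicate 3 at 12 °C lay far above the other 7 libraries, and 3 of the 4 cold libraries were higher than each of the other warm ones. The level averaged 32202 ± 7855 CPM at 1.5 °C and 46077 ± 50033 CPM at 12 °C (SD, n = 4 each). The log2 change was -0.52 (SE 0.69, adjusted p = 0.887 by edgeR) with all libraries and 0.60 (adjusted p = 0.718) without replicate 3 at 12 °C, so that its sign rests on 1 library. DESeq2 gave this transcript no p. It was the most abundant transcript by count in 3 of the 8 libraries and among the 4 most abundant in every one.

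A second COX2 transcript of E. verrucosus, of 2260 nt, held 0.0512% of the name's mean. It had 21.2, 27.5, 8.46 and 14.2 CPM at 1.5 °C and 30.0, 41.6, 11.0 and 6.76 CPM at 12 °C, and the groups overlapped. In replicate 3 at 12 °C, where the main transcript peaked, it stood at 11.0 CPM, below 5 of the other libraries. Its log2 change was -0.32 (SE 0.60, adjusted p = 0.928 by edgeR). The COX2 transcript of E. cyaneus, of 458 nt, had 2, 0, 2 and 3 counts at 1.5 °C and 1, 3, 0 and 20 at 12 °C, and did not pass the filter.

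COX3 of E. verrucosus, a transcript of 2312 nt, had 12247, 20034, 14971 and 14892 CPM at 1.5 °C and 19024, 12766, 35663 and 11686 CPM at 12 °C. It peaked in the same warm library as COX2, replicate 3, and the groups overlapped. The log2 change was -0.35 (SE 0.45, adjusted p = 0.884 by edgeR), and 0.10 (adjusted p = 0.971) without that library. Together with COX2 it made up nearly all of the share of the assigned members in this species, which was 3.12 to 6.72% of counts at 1.5 °C and 2.99 to 12.9% at 12 °C. In G. lacustris the COX3 transcript, of 1120 nt, had 14.9, 33.6, 14.1 and 12.3 CPM at 1.5 °C and 11.6, 19.3, 9.96 and 8.97 CPM at 12 °C. The groups overlapped, and the log2 change was 0.59 (SE 0.39, adjusted p = 0.270 by edgeR). In E. cyaneus COX3 held 33 estimated counts in all, 24 of them in replicate 4 at 12 °C. The log2 changes of all 10 mitochondrial names of E. cyaneus were below 0 in the authors' deposited table, with none called. The median over all names of that species was 0.01. COX2, COX3, CYTB and ND5 had mean normalised counts of only 0.655 to 4.13. COX1 and ND3 were at -0.16 (SE 0.27) and -0.20 (SE 0.51).

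ATP6 of E. verrucosus, a transcript of 814 nt, had 7.98, 10.9, 4.33 and 5.71 CPM at 1.5 °C and 11.3, 17.2, 5.70 and 3.03 CPM at 12 °C. The groups overlapped, with replicate 2 the highest at each temperature. The log2 change was -0.36 (SE 0.54, adjusted p = 0.905 by edgeR). In E. cyaneus ATP6 has a log2 change of -1.37 (SE 0.50, adjusted p = 0.0726) at a mean normalised count of 249.7 in the authors' deposited table.

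**Figure D2:**
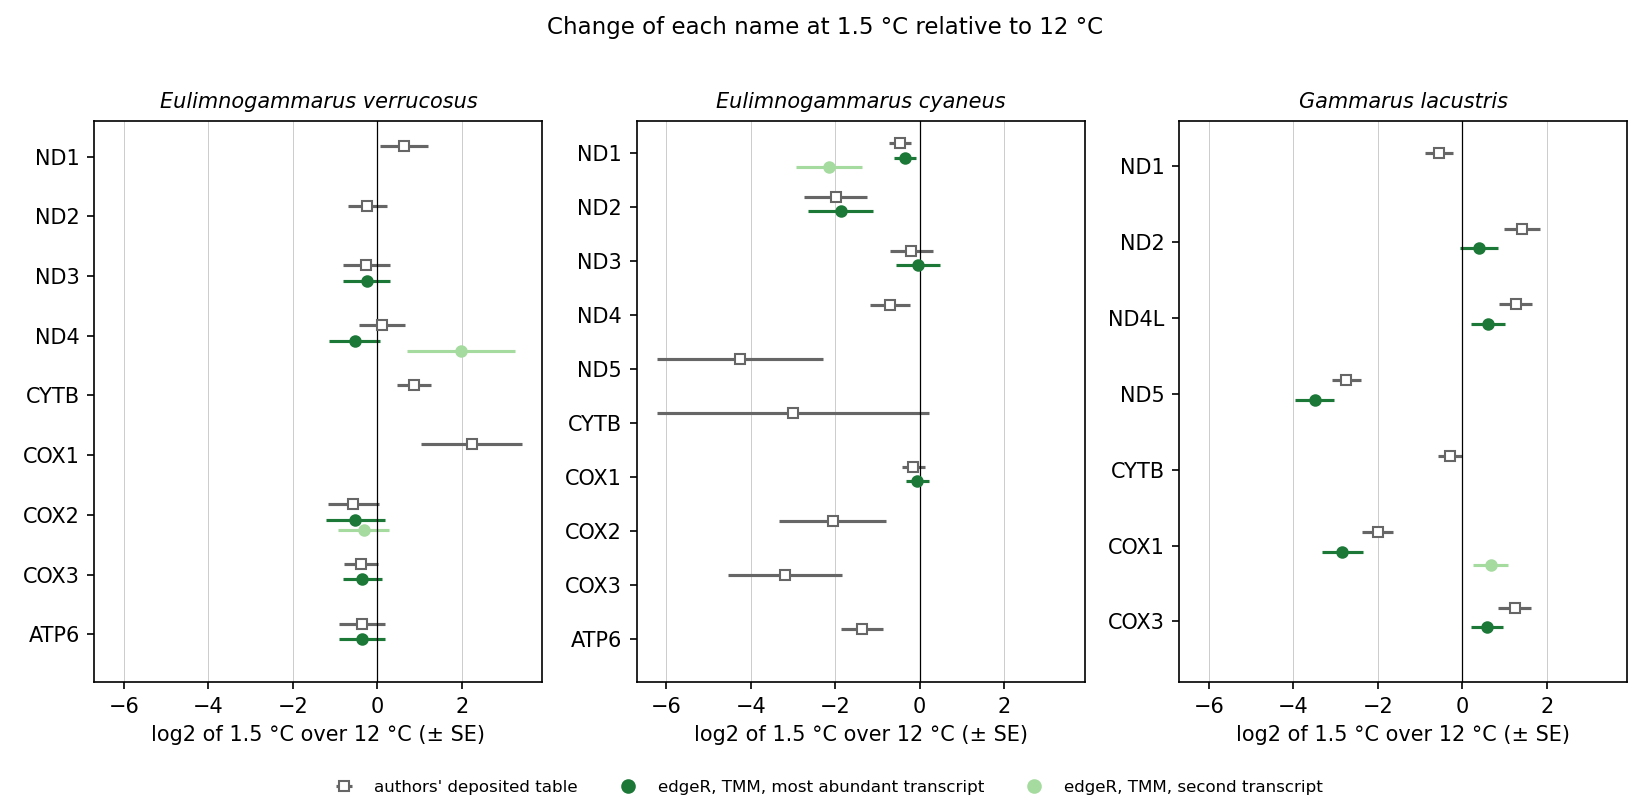
Change of each mitochondrial name as log2 of 1.5 °C over 12 °C with its standard error, in the 3 species. Open squares are the authors' deposited table, dark circles edgeR on the most abundant transcript of the name and light circles on the second one; in G. lacustris each square sits to the right of the dark circle of its name.

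Some scarce transcripts shared a library pattern with each other and not with the abundant ones. In E. verrucosus ATP6, ND3, the first ND4 transcript and the second COX2 transcript shared their high and low libraries, with Pearson correlations of log2 CPM between 0.96 and 0.99 over the 8 libraries. Their correlations with the abundant COX2 and COX3 transcripts lay between -0.14 and 0.09, while those 2 correlated with each other at 0.91. The second ND4 transcript, also scarce, stood outside the set, at 0.07 to 0.14 with its 4 transcripts. The count of ATP6 was 0.376 to 0.519 times that of the second COX2 transcript in every library, while each of the pair varied more than 4-fold. In G. lacustris the second COX1 transcript and COX3 correlated at 0.99, and ND4L with them at 0.92 and 0.94. The second COX1 transcript held 2.74 to 3.41 times the counts of COX3 in all 8 libraries. The first COX1 transcript and ND5 correlated with each other at 0.99 and with these at -0.47 to -0.33. In E. cyaneus the second ND1 transcript and ND2 correlated at 0.95, both high in replicate 4 at 12 °C, where COX2 and COX3 also had most of their counts. COX1, scarce as well, ran against both (-0.78 with the second ND1 transcript and -0.86 with ND2), and ND3 correlated with ND2 at 0.42. These correlations describe 8 libraries that share their scaling.

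**Figure D3:**
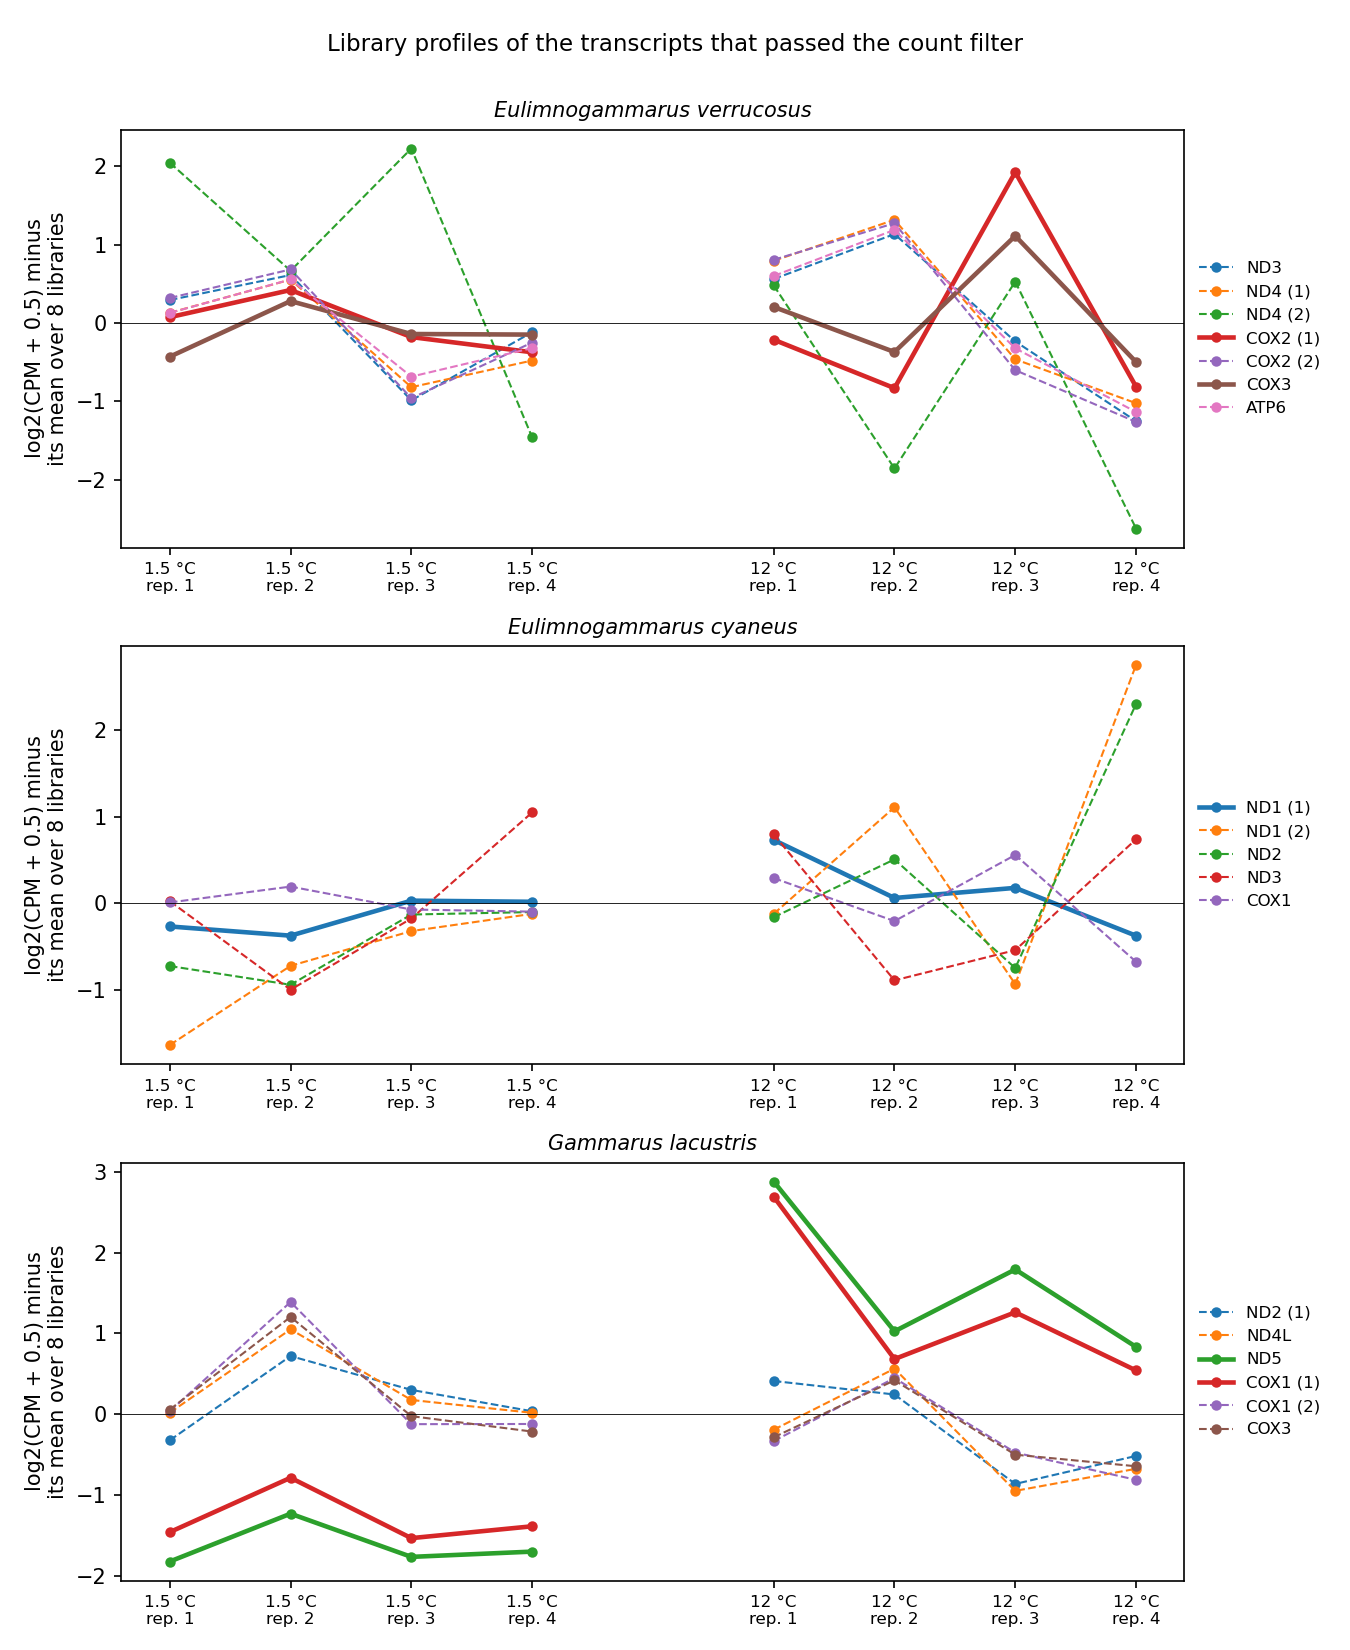
Library profiles of the 18 transcripts that passed the filter, as log2(CPM + 0.5) minus its mean over the 8 libraries of the species; the 4 libraries at 1.5 °C are on the left and the 4 at 12 °C on the right. Thick lines are the abundant transcripts, dashed lines the scarcer ones, and lines only link the points of 1 transcript; in G. lacustris COX1 (1) and ND5 lie below 0 in all cold libraries and above 0 in all warm ones.

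Ratios between names within a library do not depend on how libraries are scaled. In G. lacustris the log2 ratio of COX1, both transcripts summed, to COX3 was 6.63, 6.16, 6.63 and 6.97 at 1.5 °C and 11.1, 8.37, 9.89 and 9.32 at 12 °C. The groups did not overlap. The difference was -3.07 (exact 2-sided permutation test, p = 0.0286, adjusted p = 0.0408 over 10 pairs), and 0.0286 is the smallest p that 70 splits allow. The same held for COX1 to ND2 and COX1 to ND4L, at -3.16 and -3.21, and for the ratios of ND5 to these 3 names. Of the 10 pairs 7 passed, and each of them holds COX1 or ND5, whose abundant transcripts edgeR had already called lower. The ratios of these names to COX3, ND2 and ND4L therefore restate those calls. Of all transcripts tested in this species, 29.7% were lower at 1.5 °C without overlap. How often pairs of other names would pass was not computed. COX1 and ND5 also changed relative to each other. Their log2 ratio averaged 4.39 ± 0.10 at 1.5 °C and 3.67 ± 0.14 at 12 °C (SD, n = 4 each), a difference of 0.73 (exact permutation p = 0.0286, adjusted p = 0.0408), so that ND5 was lower in the cold by more than COX1. COX3 to ND4L averaged 0.60 ± 0.19 at 1.5 °C and 0.74 ± 0.29 at 12 °C (exact permutation p = 0.486, adjusted p = 0.607).

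In E. verrucosus none of 10 pairs and in E. cyaneus none of 21 pairs passed the exact permutation test after adjustment. The log2 ratio of COX2 to COX3 in E. verrucosus was 1.45, 1.09, 0.91 and 0.72 at 1.5 °C and 0.53, 0.49, 1.76 and 0.63 at 12 °C. All 4 cold libraries were above 3 of the warm ones and below replicate 3 at 12 °C (exact permutation p = 0.600, adjusted p = 0.984). In E. cyaneus the log2 ratio of COX1 to ND1 averaged -7.23 ± 0.33 at 1.5 °C and -7.55 ± 0.37 at 12 °C (exact permutation p = 0.200, adjusted p = 0.776).

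**Figure D4:**
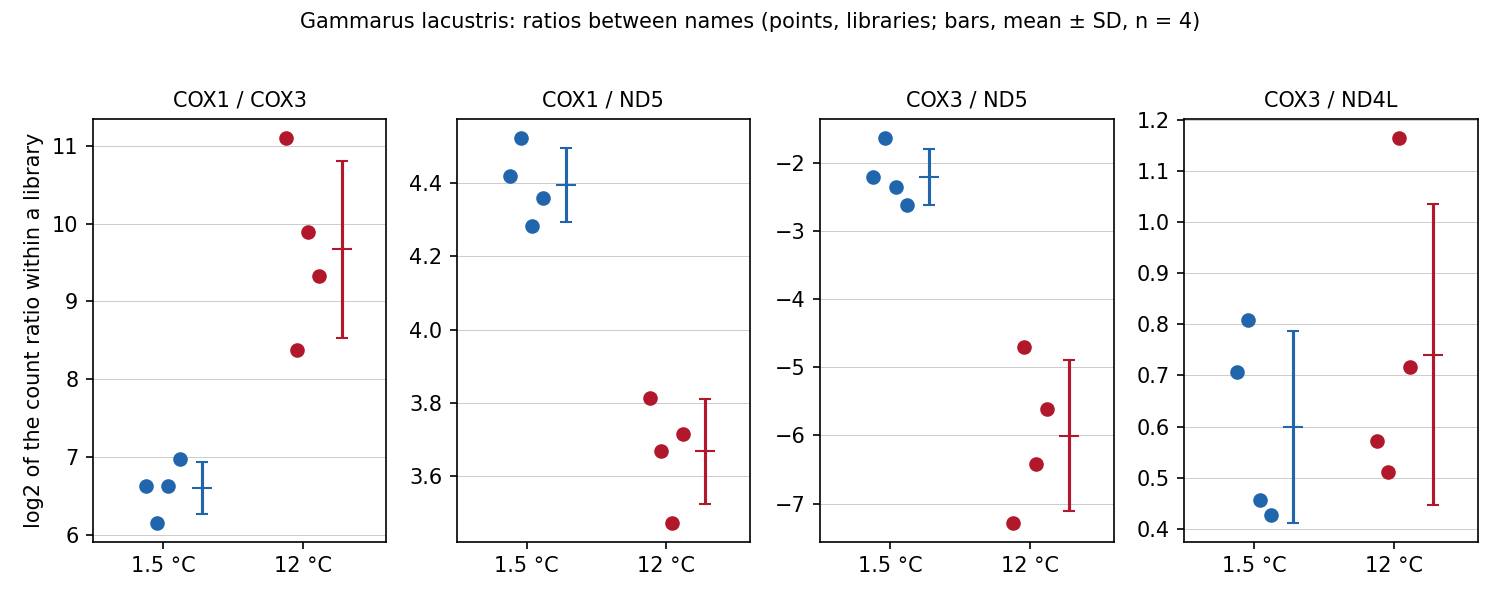
Log2 count ratios between names within each library of G. lacustris, at 1.5 °C (blue, left) and 12 °C (red, right), with the mean and SD of 4 libraries; vertical scales differ between panels and COX1 is the sum of its 2 transcripts. COX1 / COX3, COX1 / ND5 and COX3 / ND5 do not overlap between temperatures, and COX3 / ND4L does.

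The change of a name could be compared between species where transcripts were assigned in both and passed the filter, which left 4 comparisons. COX1 changed by -2.55 in G. lacustris and by 0.02 in E. cyaneus on the log2 CPM scale, a difference of -2.56 (SE 0.53, limma adjusted p = 5.48e-04 over 311 shared names). Of these names 49.2% differed between the 2 species at the same threshold. ND2 differed by 1.7 between G. lacustris and E. cyaneus (SE 0.80, limma adjusted p = 0.0882). With libraries left out in turn this difference ran from 1.01 (limma adjusted p = 0.191, without E. cyaneus replicate 4 at 12 °C) to 2.2 (limma adjusted p = 0.0215, without E. cyaneus replicate 3 at 12 °C), and 2 of the 16 fits called it. COX3 differed by 0.74 between G. lacustris and E. verrucosus (SE 0.52, limma adjusted p = 0.272 over 363 names), and ND3 by 0.05 between E. cyaneus and E. verrucosus (SE 0.80, limma adjusted p = 0.973 over 362 names). The COX3 transcripts set side by side differ widely in level, with 6.68 to 23.7 TPM over the libraries of G. lacustris and 4830 to 13209 TPM over those of E. verrucosus. The COX1 transcripts also differ. That of E. cyaneus had 14.3 to 31.6 TPM, and the main one of G. lacustris 309 to 5067 TPM. Nearer in level to E. cyaneus was the second COX1 transcript of G. lacustris, at 8.34 to 36.7 TPM. Its log2 change was 0.68 and was not called.

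Nuclear genes of the complexes, of their assembly, of the mitochondrial ribosome and of the upkeep of mitochondrial DNA and RNA were listed by symbol. In G. lacustris the authors' deposited table has 39 subunits of the complexes, 9 of them higher and 13 lower at 1.5 °C. Over all 102 listed names the authors' deposited table has 34 higher and 33 lower, beside 25.1% higher and 33.8% lower among all its names. Under TMM scaling edgeR called 3 of the 41 listed names with a single tested transcript higher and 20 lower. The 33 lower ones had a median log2 change of -2.53 and a median mean normalised count of 16.3, and the higher ones 0.87 and 351, all on the unshifted scale of the authors' deposited table. Of the nuclear cytochrome oxidase subunits there, COX4I1 (-1.91), COX5B (-2.36) and COX6B1 (-2.07) were lower by the authors' deposited table. COX6A1 (0.46) and COX6C (0.01) were not called in the authors' deposited table. By edgeR, COX6B1 averaged 4.25 ± 0.95 CPM at 1.5 °C and 28.9 ± 12.7 CPM at 12 °C (SD, n = 4 each; log2 change -2.76, adjusted p = 3.75e-04). The authors' deposited table, on its unshifted scale, called 5 of 19 nuclear complex I names higher and 5 lower, with a median log2 change of 0.35. Among 5 complex I genes with a single tested transcript, edgeR called 4 lower and 0 higher, NDUFS1 with 2.73 CPM at 1.5 °C and 24.6 CPM at 12 °C. Over all singly assigned names of G. lacustris, edgeR called 753 of 1514 lower and 151 higher. Of the genes that maintain mitochondrial DNA and RNA, edgeR called 1 of 3 higher and 0 lower. MTPAP, the mitochondrial poly(A) polymerase, had a log2 change of 0.75 (SE 0.23, adjusted p = 0.0232 by edgeR). The authors' deposited table called 5 of 11 names of that list higher, which were MTPAP, POLG (0.96), SSBP1 (1.04), TRMT10C (0.98) and MTERF4 (1.13), on its unshifted scale. The 2 lower names in the authors' deposited table were POLRMT (-3.58), the mitochondrial RNA polymerase, and ELAC2 (-4.26), at mean normalised counts of 2.26 and 2.19.

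In E. cyaneus the authors' deposited table called 8 of 51 nuclear names of these lists lower and 0 higher, where 4.03% of all its names were called lower and 2.24% higher. Under TMM scaling edgeR called 0 of the 31 listed names with a single tested transcript. Over all 1159 singly assigned names of this species it called 3 higher and 3 lower. Both nuclear cytochrome oxidase subunits, COX5A (-0.85, adjusted p = 0.0174) and COX6C (-0.86, adjusted p = 0.0195), were among the 8 in the authors' deposited table. By edgeR COX5A averaged 187 ± 45.4 CPM at 1.5 °C and 320.2 ± 97.9 CPM at 12 °C and did not pass (adjusted p = 0.257). The mitochondrial ribosomal genes MRPS25 (-0.78) and MRPS33 (-0.65) and the cytochrome c1 gene CYC1 (-0.57) were also lower by the authors' deposited table. In E. verrucosus the authors' deposited table called 2 of 73 higher and 0 lower. In the authors' deposited table these were SURF1 (0.86, adjusted p = 0.00717 by DESeq2), a factor of cytochrome oxidase assembly, and ATP5SL (1.48, adjusted p = 0.0300 by DESeq2). That table called 2.70% of all its names higher and 1.99% lower, and edgeR called neither gene. Of the 5 nuclear cytochrome oxidase subunits there, none was called in the authors' deposited table, which has COX5B at -0.29, COX6C at -0.36, COX6B1 at -0.86, COX6A1 at 1.97 and COX4I1 at 2.11. The last 3 had mean normalised counts of 0.429 to 7.36 in the authors' deposited table.

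Markers of tissues were summed over the names with assigned transcripts, first for muscle, which is rich in mitochondria. In E. verrucosus 5 of 12 markers summed to 10252 to 36834 CPM at 1.5 °C and 17305 to 66134 CPM at 12 °C. They were highest in replicate 1 at 12 °C, not in replicate 3 where COX2 and COX3 peaked. In E. cyaneus 6 of 12 markers summed to 6303 to 10169 CPM at 1.5 °C and 11743 to 30768 CPM at 12 °C, without overlap. The authors' deposited table called 4 of the 8 with an adjusted p lower, against 4.03% of all its names. The 1 singly assigned muscle marker tested by edgeR there had a log2 change of -0.21 and was not called. In G. lacustris 10 of 16 summed to 4238 to 6074 CPM at 1.5 °C and 5529 to 6676 CPM at 12 °C. Other lists were apart by temperature too. In G. lacustris 5 of 10 digestive gland markers summed to 920 to 1331 CPM at 1.5 °C and 670 to 877 CPM at 12 °C. Of these markers edgeR called 0 of the 2 singly assigned. The authors' deposited table, on its unshifted scale, called 4 of the 10 higher, against 25.1% of all its names. In the same species 2 of 2 nervous system markers summed to 0 to 0.190 CPM at 1.5 °C and 0.286 to 1.02 CPM at 12 °C. The nervous system values are near the floor. Neither of these 2 markers was among the singly assigned names tested by edgeR, and the authors' deposited table called neither. Of all transcripts tested in this species, 29.7% were lower at 1.5 °C without overlap. In E. cyaneus 1 of 2 yolk and oocyte markers had 953 to 1796 CPM at 1.5 °C and 105 to 424 CPM at 12 °C. This is a single gene, with a log2 change of 2.62 by edgeR. The 2 markers had a median log2 change of 1.05 in the authors' deposited table, which called 1 of them higher and not the other. The remaining lists overlapped between temperatures wherever a marker was assigned. The part of tissue make-up in the changes above was not tested.

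The names with the library profile most like that of each member were found among names with a single assigned transcript. For the first COX1 transcript of G. lacustris they were PFDN2, a prefoldin subunit (r = 0.998), RpL37A, a ribosomal protein of the large subunit (0.994), and SSR2, a translocon-associated protein (0.994). For ND5 they were SPAG1, STIM2 and VPS51, at 0.997 to 0.998. Of 1514 names, 479 reached a correlation of 0.95 with the first COX1 transcript and 549 with ND5, while none reached it with the second COX1 transcript, COX3, ND4L or ND2. The nearest names to COX3 were GLIS1 (0.894), EIF4E3 (0.847) and DMRTC2 (0.824), and GLIS1 and EIF4E3 were also nearest to the second COX1 transcript.

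In E. verrucosus PAMR1 was nearest to both COX2 (0.938) and COX3 (0.911), and AATF was nearest to ATP6, ND3, the first ND4 transcript and the second COX2 transcript, at 0.835 to 0.940. The second ND4 transcript ran instead with the ribosomal protein genes RPS15 (0.983) and RpL7 (0.970) and with TMBIM6 (0.970). RPS15 had a log2 change of 1.99 (SE 1.19), beside 1.98 for that ND4 transcript. In E. cyaneus ND1 was nearest to PIK3R3 (0.957) and DDX55 (0.954), and COX1 to GAS8 (0.882). All of these are correlations over 8 libraries, given as a description.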

How the data were processed

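RNA of pooled whole amphipods was enriched for poly(A) RNA and sequenced, per the labels' protocols. The authors quantified each library against an assembled transcriptome with Salmon 1.1.0 and deposited, for every transcript, the estimated count and the TPM, per the file headers and the submitters' processing notes. The deposited comparison tables, computed by the authors with DESeq2 1.26.0 per those notes, hold 1 entry for each gene name. Per the file headers these give a mean normalised count (a signal with no unit), the log2 change and its standard error, the Wald score, and the p-value raw and adjusted. Their size factors were recovered from the deposited means.

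A name was assigned the transcript or set of 2 or 3 whose counts returned its deposited mean within a relative 1e-11. The refitted log2 change was within 1e-06 of the deposited one for 13 of the 17 names and within 1.1e-06 for 3, and was not computed for ND5 of E. cyaneus. Estimated counts were rounded. Transcripts with at least 10 counts by the filterByExpr rule and 15 in total were tested, each species on its own, with the 2-sided quasi-likelihood test of edgeR 4.0.16 (R 4.3.3, TMM scaling, Benjamini-Hochberg adjustment over all transcripts, threshold 0.05). Differences between species were fitted with limma 3.58.1 on log2 CPM with a prior count of 2. Within-library ratios, with 0.5 counts added, were compared by an exact 2-sided permutation test over all 70 splits. Correlations are Pearson's r of log2 CPM over 8 libraries.

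On simulated counts edgeR recovered 11, 66 and 36% of 4-fold changes and 77, 96 and 96% of 16-fold changes in E. verrucosus, E. cyaneus and G. lacustris, in that order. Only 200 transcripts were changed in each simulation, of 25832 in that of G. lacustris. In the data of that species 39.8% of transcripts were called. The adjustment depends on this share, so the recovery given for G. lacustris need not hold for its data. The alternatives were other scalings, no filter, DESeq2 1.42.0, summed transcripts, a block for the replicate number, the size factors of the deposited table (chosen after seeing the data) and each library left out. The members and the gene lists were chosen with earlier results of these data known. The text names every member, the 3 names nearest to a member in profile (some of them only), list genes past the threshold and the nuclear cytochrome oxidase subunits. Pools are the replicates, so p-values measure the spread between pools.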

Additional observations from a re-analysis of the deposited data

Results flagged for a closer look

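In 6 of 46 groups of 4 libraries tested by Dixon's criterion, 1 library stood apart from the other 3. The criterion marks about 1 in 20 groups of independent, normally distributed values. The 46 groups share libraries and their CPM values were not log-transformed, so 6 of 46 cannot be set against that rate. The abundant COX2 transcript of E. verrucosus reached 120828 CPM in replicate 3 at 12 °C, against 17890 to 27464 CPM in the other libraries of that group. ND5 of E. cyaneus had 0.794 CPM in replicate 1 at 12 °C, which is 6 counts. The other 4 are all replicate 2 at 1.5 °C of G. lacustris, with 2288 CPM for the first COX1 transcript, 115 CPM for the second, 33.6 CPM for COX3 and 19.2 CPM for ND4L, each the highest of its group.

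The change of COX1 differed between G. lacustris and E. cyaneus by -2.56 on the log2 scale in the limma fit (adjusted p = 5.48e-04), with 49.2% of the shared names also differing. The COX1 transcripts compared differ widely in level.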

How the results depend on the processing

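The calls of COX1 and ND5 in G. lacustris held under every alternative and with each library left out. The counts of transcripts called over all genes moved most. DESeq2 called 2253 for E. verrucosus (805 by edgeR), 879 for E. cyaneus (130 by edgeR) and 16626 for G. lacustris (10824 by edgeR), and 17735 were called in G. lacustris without a filter. With the size factors of the deposited table G. lacustris had 18004 calls, 10296 higher and 7708 lower (2639 higher and 8185 lower under TMM). The second COX1 transcript, COX3, ND2 and ND4L then passed, at 1.07 to 1.33 (edgeR adjusted p = 0.0191 to 0.0484). Leaving out libraries gave E. verrucosus 670 to 912 calls, E. cyaneus 41 to 197 and G. lacustris 10166 to 12317. Of those in E. cyaneus, the counts were 197, 48, 46 and 179 without replicates 1 to 4 at 12 °C, and 60, 73, 41 and 58 without replicates 1 to 4 at 1.5 °C. The cause was not tested.

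Deviations of equal replicate numbers correlated at -0.21 to 0.11 over the tested transcripts. These correlations cannot decide whether equal numbers were paired. With a replicate block edgeR called 170 transcripts of E. verrucosus and 44 of E. cyaneus. The first COX2 transcript of E. verrucosus changed sign to 0.030 and COX1 of E. cyaneus to 0.017, neither called. In E. verrucosus the SE of the second ND4 transcript fell from 1.28 to 0.68 (log2 change 2.59, adjusted p = 0.236 by edgeR). That of the first COX2 transcript rose from 0.69 to 0.83. In G. lacustris the SE of the second COX1 transcript fell from 0.41 to 0.23 (adjusted p = 0.0859 by edgeR), and that of the main ND2 transcript rose from 0.45 to 0.49. In no species did every library correlate best with its own number.

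Signs of changes that were not called turned in other ways. Under library totals they were 0.057 for ND3 of E. verrucosus and 0.36, 0.084 and 0.29 for COX1, ND1 and ND3 of E. cyaneus. Summing transcripts gave 0.52 for ND4 of E. verrucosus. With libraries left out, E. verrucosus ATP6 ran from -0.66 to 0.11, COX2 from -0.78 to 0.60, its second transcript from -0.63 to 0.15, COX3 from -0.54 to 0.10 and ND3 from -0.55 to 0.20. In E. cyaneus COX1 ran from -0.24 to 0.15 and ND3 from -0.58 to 0.21, and the ND3 difference between the species from -0.34 to 0.51. The G. lacustris ratios of COX1 to COX3 ran from -3.50 to -2.60 and of COX1 to ND5 from 0.66 to 0.77, each at the smallest adjusted p that 7 libraries gave (0.0816, exact permutation test).

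The transcripts of the 17 assigned names, which leave out 9 members, had a mean share at 1.5 °C of 2.23% of TPM and 5.25% of counts for E. verrucosus, 0.740% and 1.00% for E. cyaneus, and 0.0441% and 0.181% for G. lacustris, where it was 1.17% of counts at 12 °C. Depth limits the transcripts with under 60 counts in all (COX2, COX3, ND5 and the third ND1 of E. cyaneus and the second ND2 of G. lacustris).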
